A study of Mus musculus with 2 samples.

Results

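The genes described are 50 cell cycle genes, chosen by name and placed by hand in groups named after a phase or a role. There are 21 of mitosis, 15 of S phase, 9 of G1 control and 5 Cdk inhibitors. The cells came from Bry-GFP, a mouse embryonic stem cell line in which GFP reports on Brachyury, a gene of early mesoderm. FLK1+ mesoderm was isolated from embryoid bodies on day 3 and kept either in DMSO, the solvent, or in compound B, an inhibitor of LSD1, at 300 nM, and after 2 days CD41+ cells were sorted and their RNA put on an Affymetrix array. There were 2 arrays, 1 DMSO and 1 inhibitor, and 1 line stands behind both. The labels call the cells hemogenic endothelial, the endothelium from which blood cells emerge. With 1 array per condition no test between conditions was possible, and every difference describes these 2 arrays. An array carries many probesets per gene, each a small group of probes. A gene was called by the probesets that the platform annotation ties to its symbol alone. A probeset was bright if either array read at least the median of the table, 3.17 in log2, and a gene was measured with at least 4 bright probesets. The level of a gene is the median of its bright probesets, and its difference is the median of their differences, inhibitor minus DMSO, in log2. The SD printed after a difference is taken over a gene's bright probesets and is no error between samples. Of the 50 genes, 49 had a probeset and 46 were measured, among 15087 measured genes of 21947 named.

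The cell cycle is driven by cyclin-dependent kinases, or Cdks, each switched on by a cyclin and switched off by Cdk inhibitors. In G1, D-type cyclins with Cdk4 and Cdk6 phosphorylate the retinoblastoma family, which releases E2F factors to turn on genes of DNA replication. Genes of mitosis are turned on later, through promoter elements bound by the MuvB complex and NF-Y, and many G1 genes respond instead to growth factors and to cell fate. LSD1 is a histone demethylase that silences genes together with Gfi1 and Gfi1b while endothelium turns into blood.

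The promoters of the members are shown here because their letters differ between the groups and were not used in the choice by name. RefSeq promoter windows of 300 bases, 250 before and 50 after the annotated start, matched 17 of 21 mitosis genes, 13 of 15 S phase genes, 6 of 9 G1 genes and 4 of 5 Cdk inhibitors, with 44 windows in all. The CHR element, searched as TTTGAA or TTCGAA on both strands, was in 14 of 17 mitosis windows (82.4%) and in 19.2% of all 32851 windows. The NF-Y box, CCAAT on both strands, was in 16 of the 17 (94.1%) against 37.4% of all windows. It was also in 8 of 14 S phase windows (57.1%), 3 of 6 Cdk inhibitor windows and 2 of 7 G1 windows. In mitosis 14 windows held both CHR and NF-Y box, against 7.52% of all. The E2F site, searched as TTTGGCGC, TTTCGCGC or TTTCCCGC on both strands, was in 6 of 14 S phase windows (42.9%) and in 1.84% of all. It was in 1 of 17 mitosis windows, that of Cdk1, in 2 of 7 G1 windows, those of Cdk2 and Rbl1, and in none of the 6 Cdk inhibitor windows. E2F letters of the 2 strands can overlap, as in Mcm5 and Mcm6, and TTCGAA reads the same on both strands. GC content was 59.0% in mitosis windows, 61.5% in S phase windows and 53.8% over all windows. Ccna2, Aurkb, Kif20a, Tpx2, Mcm4, Ccne2, Ccnd1, Ccnd2, Rb1 and Cdkn1c were not matched. A match is a description of letters, not of binding.

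**Figure D1:**
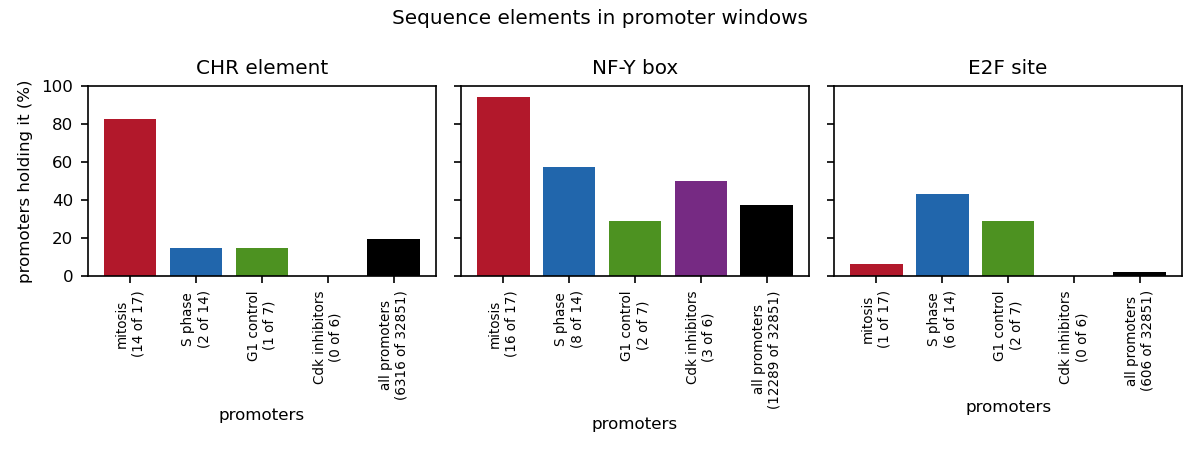
Share of promoter windows, in percent, that hold the CHR element, the NF-Y box or the E2F site, for the 4 groups of members and for all RefSeq windows, with counts under the bars. The CHR bar stands at 82.4% for mitosis genes and at 19.2% for all windows, and the E2F bar at 42.9% for S phase genes and at 1.84% for all.

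The stretches below, from RefSeq on mouse GRCm38.p6, are read on the strand of the gene and end before its start, with matches to these elements in capitals. Cdk1 carries all 3 elements, Cdc20 and Kif11 carry the compact pair of NF-Y box and CHR, and Mki67 is shown as the mitosis gene with the lowest difference. Mcm5 and Mcm6 carry paired E2F sites, and Rbl1 carries an E2F site 18 bases before its start. They lie at chr10:69352913-69353052 on the minus strand (Cdk1), chr4:118437344-118437423 minus (Cdc20), chr19:37376322-37376381 plus (Kif11), chr7:135716460-135716579 minus (Mki67), chr8:75109339-75109448 plus (Mcm5), chr1:128359726-128359835 minus (Mcm6) and chr2:157204535-157204594 minus (Rbl1).
Cdk1: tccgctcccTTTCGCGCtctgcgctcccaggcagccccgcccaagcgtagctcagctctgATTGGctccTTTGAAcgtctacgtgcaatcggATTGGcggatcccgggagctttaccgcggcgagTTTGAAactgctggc
Cdc20: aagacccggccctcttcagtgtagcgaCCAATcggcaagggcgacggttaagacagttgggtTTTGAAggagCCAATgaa
Kif11: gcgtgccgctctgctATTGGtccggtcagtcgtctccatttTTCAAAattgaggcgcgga
Mki67: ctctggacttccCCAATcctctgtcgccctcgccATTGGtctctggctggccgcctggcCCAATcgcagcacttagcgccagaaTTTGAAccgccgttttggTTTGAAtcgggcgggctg
Mcm5: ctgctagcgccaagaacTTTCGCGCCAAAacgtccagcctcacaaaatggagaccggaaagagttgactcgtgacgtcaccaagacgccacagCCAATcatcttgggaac
Mcm6: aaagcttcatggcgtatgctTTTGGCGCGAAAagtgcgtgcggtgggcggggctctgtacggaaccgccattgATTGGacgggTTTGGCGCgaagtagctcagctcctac
Rbl1: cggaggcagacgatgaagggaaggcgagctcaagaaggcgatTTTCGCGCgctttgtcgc

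As a group, the mitosis and S phase genes were bright in both arrays and nearly level between them, and the highest differences were those of Cdkn1c, Cdkn2c and Ccnd1. None of the 46 measured members met the size rule of a difference of at least 2-fold with at least 75% of probesets in that direction, which 1.72% of all measured genes met upward and 0.563% downward. None met it at 1.5-fold either, which 5.85% of all genes did upward and 2.66% downward. At 1.2-fold in either direction, a size looked at after the values were seen, there were 5 of 46 members (10.9%): Ccnd1, Cdk2, Rbl1, Cdkn1c and Cdkn2c. Which members reach that size depends on the processing. Over the alternatives, those among the 46 numbered 2 to 10. They were 0 to 3 in mitosis, 0 to 2 in S phase, 2 to 5 in G1 control and 0 to 2 among the Cdk inhibitors. The 2 in all and the 0 among the Cdk inhibitors come from a minimum of 8 bright probesets, with 41 members and no Cdk inhibitor measured. A minimum of 1 bright probeset also brings in Rrm2, Cdkn1a and Cdkn2d, which these counts leave out. Of these, Cdkn2d, at 0.30, is past 1.2-fold. The share of all measured genes at that size was 36.8%. Dim genes vary more, and among genes with a mean level of at least 7 it was 22.0%, beside 1 of 35 members there, Ccnd1. Of those 3250 genes, 110 met the 1.5-fold rule upward and 31 downward. Of the 46 differences 28 were above 0 (60.9%), and 59.0% of all genes were. Scaling moved that split for members and for all genes: the shares above 0 were 67.4% and 63.1% with each array centred on its median, 47.8% and 57.4% after quantile normalization, and 47.8% of members when the median gene was placed at 0, where all genes split evenly by construction. The median of all members was 0.038, beside 0.058 for all measured genes. It was -0.011 after quantile normalization, -0.021 when the median gene was placed at 0 and -0.025 with a level-dependent trend removed. Over only the brighter probesets it was -0.037, but there 43 members were measured, without Ccnd1, Cdkn1b and Cdkn2c, so the gene set differs too.

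**Figure D2:**
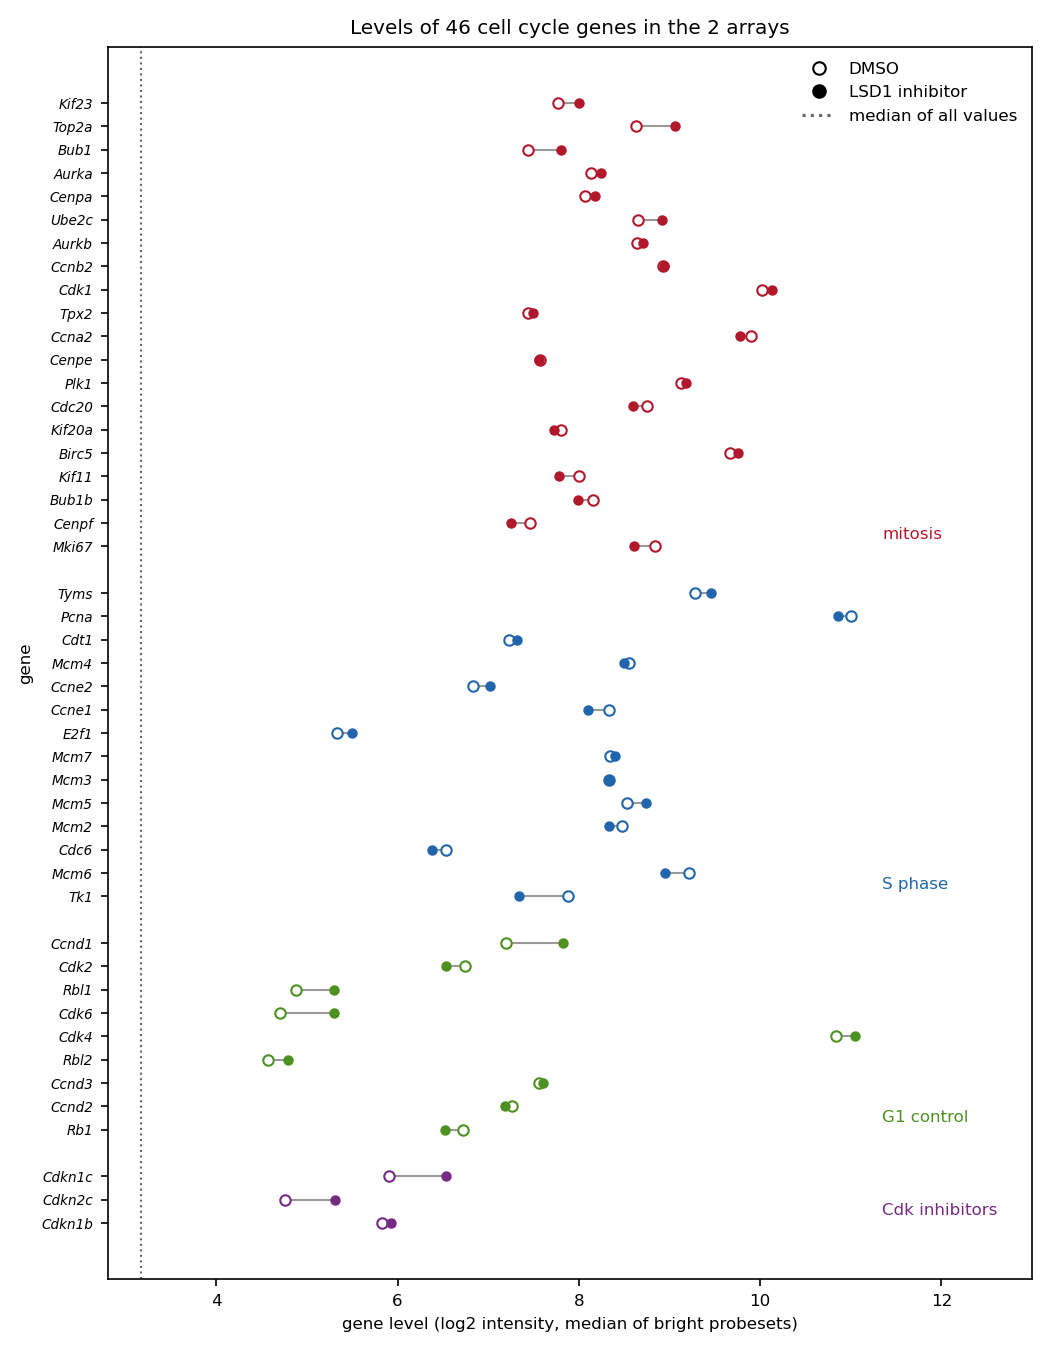
Level of each of the 46 measured members, in log2 intensity, in the DMSO array (open circles) and the inhibitor array (filled circles), ordered within each group by the difference. All levels lie above the median of the table at 3.17, as do those of nearly all measured genes, since only bright probesets are used. The widest gaps in G1 control and among the Cdk inhibitors are those of Ccnd1, Cdk6, Cdkn1c and Cdkn2c.

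The mitosis genes were measured in 20 of 21 cases, with differences from -0.25 for Mki67 to 0.24 for Kif23 and a median of 0.042. All 20 lay within 1.2-fold as deposited, but Mki67, Bub1b and Cenpf were past it after quantile normalization, when the median gene was placed at 0 and with a level-dependent trend removed. Kif23 was past it with centred arrays, and Mki67 with the mean over probesets. That median was below 0, at -0.016, when the median gene was placed at 0, at -0.013 with a level-dependent trend removed and at -0.024 over only the brighter probesets. Of their 354 bright probesets 8 were at least 2-fold apart (2.26%), against 14.3% of those of all measured genes. All measured genes are dimmer, and among genes with a mean level of at least 7 the share was 5.23%.

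Among the kinases that start and order mitosis, Cdk1, the kinase of mitotic entry, was at 10.02 in the DMSO array and 10.13 in the inhibitor array, with a difference of 0.091 (SD 0.27 over 8 probesets). Its partner cyclin Ccnb2 was at 8.93 and 8.94 and differed by 0.10 (SD 0.32, 7 of 10 probesets higher), and Ccna2, the cyclin of S phase and early mitosis, was at 9.90 and 9.78 with a difference of 0.018 (SD 0.20). Plk1, which drives centrosome maturation and chromosome separation, was at 9.13 and 9.18 and differed by 0.0084 (SD 0.20 over 11 probesets). Each of these 4 genes differed by less than the SD over its probesets. The Aurora kinase genes Aurka, of the spindle poles, and Aurkb, of the centromeres, were at 8.14 and 8.25 and at 8.64 and 8.71, with differences of 0.15 (10 of 11 probesets higher) and 0.10 (6 of 10 higher). Aurka stayed above 0 in every alternative run and Aurkb did not.

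The spindle checkpoint genes Bub1 and Bub1b, which hold cells until every chromosome is attached, pointed apart. Bub1 read 7.44 with DMSO and 7.80 with the inhibitor, a difference of 0.18 (SD 0.20, 19 of 25 probesets higher). Bub1b read 8.16 and 7.99, a difference of -0.21 (SD 0.40, 11 of 18 probesets lower). Both kept their sign in every alternative, Bub1 between 0.058 and 0.21 and Bub1b between -0.28 and -0.14. Cdc20, the activator of the anaphase-promoting complex that the checkpoint restrains, was at 8.75 and 8.60 (difference -0.036), and Ube2c, the E2 enzyme of that complex, was at 8.66 and 8.92 (difference 0.11, 5 of 7 probesets higher). The inner centromere survival protein gene Birc5 was at 9.67 and 9.76, with a difference of -0.038 over 8 probesets.

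Among the centromere and motor genes, Kif11 and Cenpe had the widest scatter between probesets in mitosis. Cenpa, the histone that marks centromeres, was at 8.07 and 8.18 and differed by 0.12 (6 of 8 probesets higher). Cenpf, a kinetochore protein, was at 7.47 and 7.26 and differed by -0.22 (SD 0.39, 16 of 20 probesets lower), and the motor gene Cenpe was at 7.58 and 7.56 (0.017). Kif11, the kinesin that pushes spindle poles apart, was at 8.0 and 7.79 with a difference of -0.14 (SD 0.60 over 27 probesets), and its furthest probeset read 6.34 with DMSO and 4.29 with the inhibitor. No more than 2 of those 27 probesets were 2-fold apart. Kif20a and Kif23 encode kinesins of cytokinesis. Kif20a was at 7.80 and 7.72 (-0.037) and Kif23 at 7.77 and 8.0, with the highest difference of the group at 0.24 (SD 0.36, 14 of 19 probesets higher). The spindle assembly factor gene Tpx2 was at 7.44 and 7.5 (0.066).

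Mki67 and Top2a, which are used to mark dividing cells, differed in opposite directions. Mki67, which coats mitotic chromosomes, was at 8.83 with DMSO and 8.60 with the inhibitor, the lowest difference of all members at -0.25 (SD 0.29, 18 of 21 probesets lower), or 1.19-fold. Top2a, the topoisomerase that untangles replicated DNA, was at 8.63 and 9.06 and differed by 0.20 (SD 0.30, 36 of 43 probesets higher), or 1.15-fold. Each kept its sign in every alternative, Mki67 between -0.31 and -0.22 and Top2a between 0.12 and 0.23. Both carry CHR elements and NF-Y boxes in their promoter windows, 2 and 3 in Mki67 and 4 and 6 in Top2a. Over all members, 9 had at least 75% of their probesets higher, as had 23.0% of all measured genes, and 5 had at least 75% lower, as had 10.8%. In mitosis the higher ones were Top2a, Cdk1, Aurka, Bub1 and Cenpa, and the lower ones Mki67 and Cenpf. Ccnb1, the main mitotic cyclin gene, had no probeset under its symbol alone and was not analysed here. The deposited table stops at the row limit of a spreadsheet, and whether further probesets of Ccnb1, Rrm2, Cdkn1a or Cdkn2d lie past it is not known here.

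**Figure D3:**
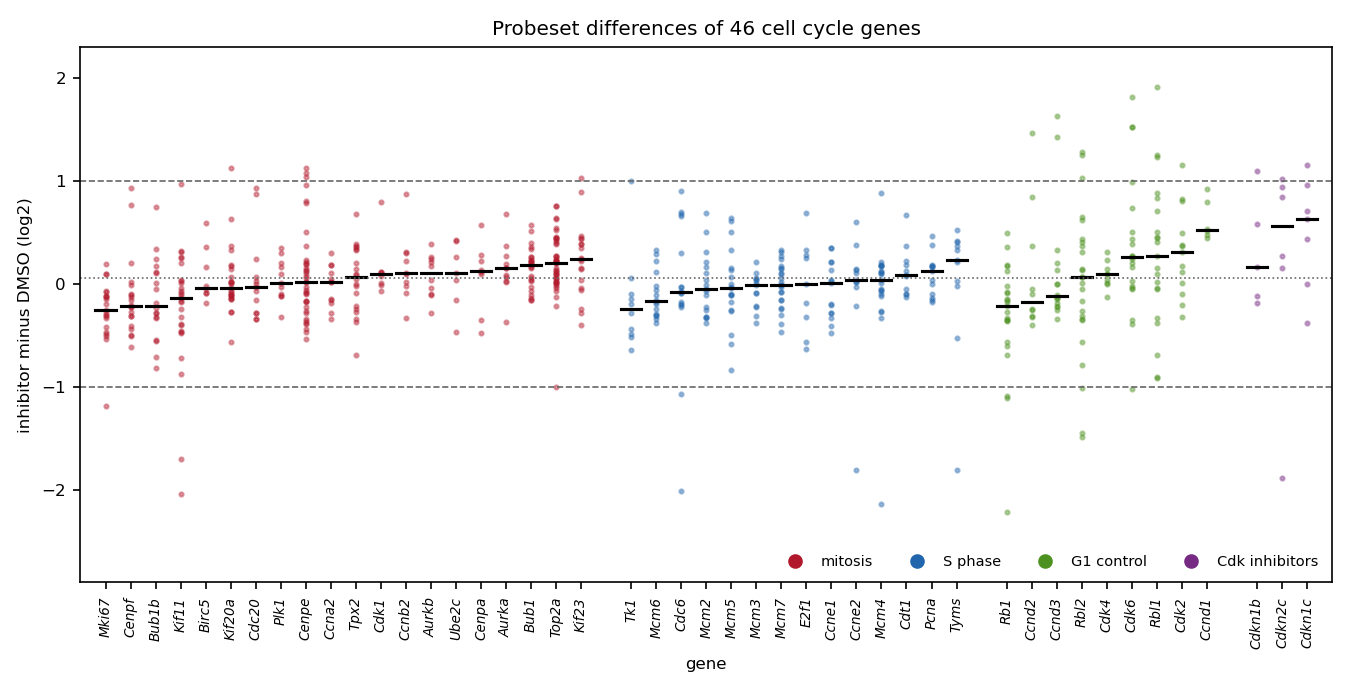
Difference of each bright probeset (points, inhibitor minus DMSO in log2) for the 46 measured members, with the median of the gene as a black bar. The dashed lines mark 2-fold and the dotted line the median of all measured genes, 0.058. The bars of mitosis and S phase genes run from -0.25 to 0.24, and the points of G1 genes such as Rb1, Cdk6, Rbl1 and Rbl2 scatter further.

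The S phase genes were measured in 14 of 15 cases, with differences from -0.24 for Tk1 to 0.23 for Tyms and a median of -0.0042, which turned to 0.023 with each array centred on its median. All 14 lay within 1.2-fold as deposited. Tk1 was past it in 5 alternatives, among them quantile normalization (-0.29) and the median gene placed at 0 (-0.30), and Tyms in 2. Against the median gene of the array, 3 of the 14 were above it and 11 below. Of 205 bright probesets 6 were 2-fold apart (2.93%), beside 5.23% among all genes with a mean level of at least 7.

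The 6 subunits of the Mcm helicase, the ring that unwinds DNA at the fork, lay close together, from -0.17 to 0.038. Mcm2 was at 8.47 with DMSO and 8.33 with the inhibitor and differed by -0.054. Mcm3 was at 8.33 in both arrays (-0.013), Mcm4 at 8.55 and 8.50 (0.038), and Mcm5 at 8.53 and 8.74 (-0.045). Mcm6 was at 9.22 and 8.95 and had the largest difference of the ring, -0.17 (SD 0.23, 12 of 16 probesets lower), and Mcm7 was at 8.35 and 8.40 (-0.0074). The ring had 109 bright probesets, of which 1 was 2-fold apart, a probeset of Mcm4 that read 5.74 and 3.61. Mcm2, Mcm5 and Mcm6 stayed below 0 in every alternative, and Mcm3, Mcm4 and Mcm7 changed sign in at least 1.

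Cdc6 and Cdt1, which load the Mcm ring onto origins, were at 6.53 and 6.38 (difference -0.078, SD 0.71 over 16 probesets) and at 7.23 and 7.32 (0.088, SD 0.24 over 11). Pcna, the sliding clamp of the DNA polymerases, was at 11.01 and 10.86. Its difference over 13 probesets was 0.12 (SD 0.20), opposite in sign to the gap between the 2 levels, and it was -0.09 with its brighter probesets alone. The levels and the difference disagreed in sign in 12 of the 46 members, 7 of them in S phase. The median level of a gene can fall on another probeset in each array. It can also fall on 1 probeset whose direction is not that of the median difference, as in Mcm3 and Cdk2. In these 12 the direction is not settled by these values.

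The enzymes that make thymidine nucleotides had medians of opposite sign. Thymidylate synthase, Tyms, was at 9.29 and 9.46 and differed by 0.23 (SD 0.67, 8 of 11 probesets higher), with 1 probeset that read 5.13 and 3.33 in the opposite direction. With the mean over probesets the difference of Tyms was 0.013. Thymidine kinase, Tk1, was at 7.88 and 7.34 and differed by -0.24 (SD 0.47, 8 of 10 probesets lower), or 1.18-fold, and it kept its sign in every alternative. For Tyms, 3 probesets that also name the pseudogene Tyms-ps were left out. Rrm2, the small subunit of ribonucleotide reductase, had 1 probeset, at 4.55 with DMSO and 4.51 with the inhibitor, and was not counted as measured.

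Of the genes that commit cells to S phase, the E-type cyclin Ccne1, the partner of Cdk2, was at 8.33 and 8.10 (difference 0.0078) and Ccne2 at 6.83 and 7.01 (0.037, SD 0.62). E2f1, the transcription factor released by Rb, was at 5.33 and 5.50, with a difference of -0.0011 over 9 probesets. None of the 3 differed beyond the scatter of its probesets, and all 3 changed sign in at least 1 alternative.

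The G1 control genes were all measured, 9 of 9, with a median of 0.091 and a wider range, from -0.22 for Rb1 to 0.52 for Ccnd1. The median was 0.033 when the median gene was placed at 0. Over only the brighter probesets it was 0.0056, but there 8 genes were measured and Ccnd1, the highest, was not. They were dimmer, with a median DMSO level of 6.74 against 8.39 for mitosis genes, and the median SD over probesets was 0.58 against 0.32. Of 144 bright probesets 20 were 2-fold apart (13.9%), close to the 14.3% of all genes.

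Among the D-type cyclins, which carry growth signals to Cdk4 and Cdk6, Ccnd1 stood apart from Ccnd2 and Ccnd3. The 6 bright probesets of Ccnd1 read 7.02, 6.65, 7.59, 7.36, 7.80 and 4.33 in the DMSO array and, in the same order, 7.81, 7.18, 8.10, 7.84, 8.72 and 4.78 in the inhibitor array. Every one of the 6 was higher with the inhibitor, by 0.45 to 0.92, and the gene differed by 0.52 (SD 0.19), or 1.43-fold. Its dim probeset read 3.01 and 2.46. Ccnd1 was one of 2 members whose difference was larger than the SD over its probesets. It lay between 0.44 and 0.61 over the alternatives that measured it. The brighter probesets alone and a minimum of 8 bright probesets did not. Ccnd2 was at 7.26 and 7.19 and differed by -0.17 (SD 0.61, 7 of 10 probesets lower), and Ccnd3 was at 7.56 and 7.61 and differed by -0.12 (SD 0.58, 9 of 16 lower). Both of these changed sign in at least 1 alternative, and 3 probesets of Ccnd3 that also name Ccnd3-ps were left out.

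The kinase genes Cdk4, Cdk6 and Cdk2 had differences above 0, each smaller than the SD over its probesets. Cdk4 was at 10.84 and 11.04 and differed by 0.091 (SD 0.13, 7 of 9 probesets higher), the smallest scatter of any member. Cdk6, the other D-type cyclin partner and a kinase prominent in blood cells, was dim at 4.70 and 5.30 and differed by 0.26 (SD 0.67, 15 of 21 higher), with 4 probesets 2-fold apart. Cdk2, the partner of the E-type cyclins, differed by 0.31 (SD 0.43, 10 of 13 probesets higher) while its levels were 6.74 and 6.54. Both levels are those of the same probeset, 1 of the 3 that were lower, and the direction of Cdk2 is another of those not settled. Cdk2 and Cdk6 stayed above 0 in every alternative.

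The pocket proteins, which hold E2F factors in check, did not move together. Rb1 was at 6.72 and 6.52 and differed by -0.22 (SD 0.57, 18 of 23 probesets lower), and its furthest probeset read 3.60 and 1.39. Rbl1, which encodes p107 and is itself an E2F target, was at 4.88 and 5.30 and differed by 0.27 (SD 0.72, 14 of 21 higher), and Rbl2, which encodes p130 of resting cells, was at 4.57 and 4.78 (0.061, SD 0.72). Rb1 and Rbl1 each kept their sign in every alternative, and each difference was smaller than the SD over the probesets of its gene.

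The Cdk inhibitors had the highest differences of the 4 groups, on the fewest and dimmest probesets. Of the 5 genes 3 were measured, all 3 with differences above 0, and their median of 0.56 rests on these 3. That median was 0.31 with the mean over probesets, 0.26 with values below the median of the table raised to it, and 0.30 when genes with at least 1 bright probeset were taken, which brings in all 5. Cdkn1c, which encodes p57 and is an imprinted inhibitor of cyclin-Cdk complexes, had the highest difference of all members, 0.63 (SD 0.54), or 1.55-fold. Its 7 bright probesets read 7.03, 5.90, 5.48, 3.50, 6.86, 5.0 and 6.53 in the DMSO array and 8.19, 6.53, 5.47, 3.12, 7.56, 5.96 and 6.97 in the inhibitor array. Of these 5 were higher and 2 lower, among them the dimmest, so the gene missed the direction rule with 71.4%. Over the alternatives that measured it, Cdkn1c lay between 0.50 and 0.67.

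Cdkn2c, which encodes p18 and blocks Cdk4 and Cdk6, was at 4.76 and 5.31 and differed by 0.56 (SD 1.09, 5 of 6 bright probesets higher), or 1.47-fold. The probeset against that direction read 4.48 with DMSO and 2.59 with the inhibitor. Over the alternatives that measured it, Cdkn2c lay between 0.22 and 0.59, with 0.22 for the mean over probesets and 0.26 with dim values raised. Of its 10 probesets, 4 were too dim to use. Cdkn1b, which encodes p27, was at 5.82 and 5.93 and differed by 0.16 (SD 0.53, 3 of 5 higher). Cdkn1a, which encodes p21 and is a target of p53, had 3 probesets, too few to be measured. They read 9.52, 5.56 and 10.70 with DMSO and 9.74, 6.58 and 10.80 with the inhibitor, each of the 3 higher, by 0.10 to 1.02. The 3 probesets of Cdkn2d, which encodes p19 of the same family as Cdkn2c, read 5.86, 5.72 and 5.91 with DMSO and 6.16, 5.53 and 6.68 with the inhibitor, 2 of 3 higher.

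**Figure D4:**
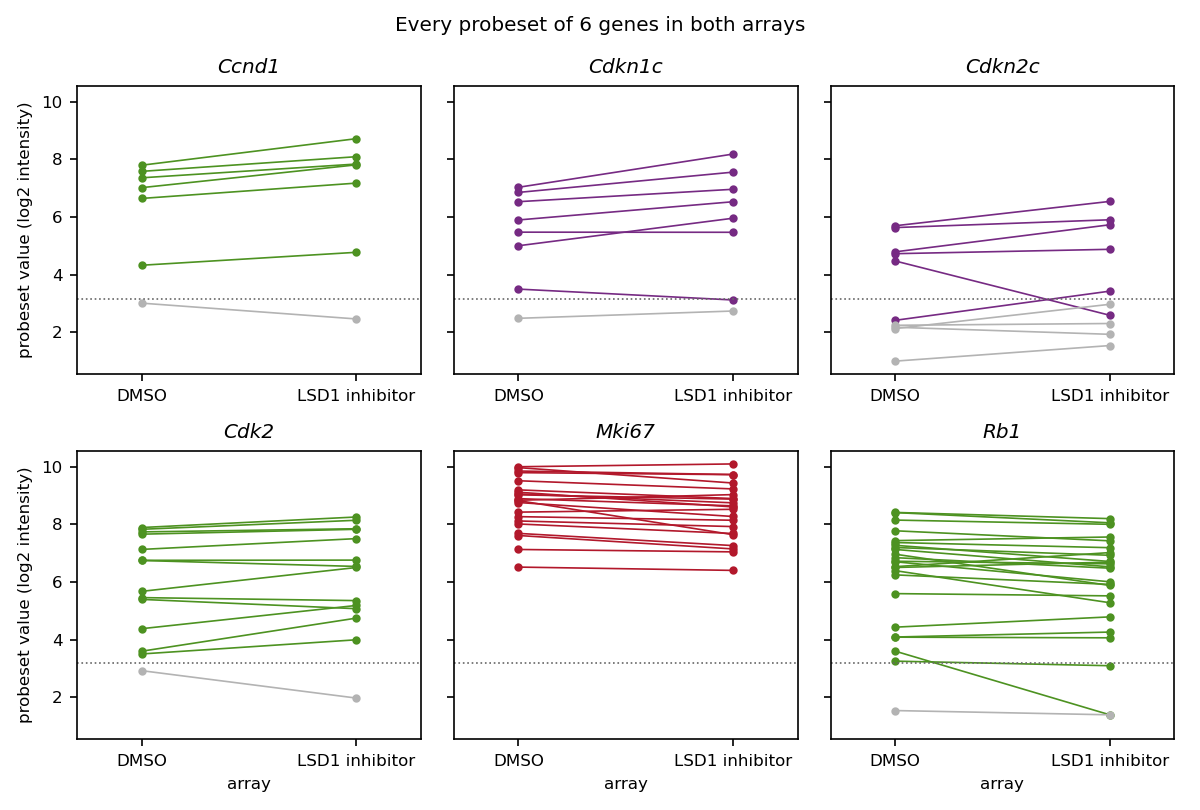
Every probeset of Ccnd1, Cdkn1c, Cdkn2c, Cdk2, Mki67 and Rb1, in log2 intensity, with a line from the DMSO array to the inhibitor array, grey where the probeset was dim, and a dotted line at the median of the table. All 6 bright lines of Ccnd1 go up, 18 of 21 lines of Mki67 and 18 of 23 of Rb1 go down, and those of Cdkn2c cross.

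The rest of the cycle's machinery comprised 157 measured genes in 6 further lists. None met the size rule at 2-fold. At 1.5-fold 4 genes were higher and 1 lower, beside 5.85% and 2.66% of all genes. At 1.2-fold there were 24 (15.3%), from 7.69% of other mitosis genes to 33.3% of p53 genes and 41.7% of other G1 genes, beside 36.8% of all genes. Of 52 other mitosis genes (median 0.0096), Racgap1, a cytokinesis regulator that works with Kif23, was at 7.39 and 8.21 and differed by 0.65 (14 of 15 probesets higher). Cdc25b, a phosphatase that activates Cdk1, was at 5.85 and 4.95 and differed by -0.82 (SD 0.74, 29 of 32 lower), the largest difference of the 6 lists. Ckap2l followed at 0.34 (SD 0.92).

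Of 48 other S phase genes (median -0.034), none met the 1.5-fold rule. Rfc3, a part of the clamp loader that places Pcna, differed by 0.53 in 9 of 9 probesets, the flap endonuclease gene Fen1 by 0.46 and the helicase gene Mcm8 by -0.30. Among 14 E2F, DREAM and MuvB genes (median 0.037) the largest differences were those of Lin52 (0.45), E2f8 (-0.30) and Lin54 (-0.23). Among 16 genes of the anaphase-promoting complex and its regulators (median 0.0070) they were those of Anapc10 (0.41), Anapc16 (0.30) and Anapc7 (-0.27).

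Of 12 other G1 genes (median 0.10), 2 were higher at 1.5-fold. Ccng2, a cyclin of cells that leave the cycle, was at 5.32 and 6.30 and differed by 0.70 (SD 0.66, 9 of 11 probesets higher). Mycn, a transcription factor that drives growth, was at 4.75 and 5.70 and also differed by 0.70 (SD 0.25, 4 of 4 higher). Cdk3 was dim at 3.68 and 3.27 and differed by -0.59 (SD 0.96). Among 15 p53 and p53 target genes, the median of 0.058 equalled that of all genes, with Pmaip1, a death gene, at 0.78 (SD 1.07, 3 of 4 higher), Plk2 at 0.50 in 17 of 17 probesets and Gadd45a at -0.48 (SD 1.05, 3 of 6 lower).

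Markers of cell types, above all endothelial and erythroid ones, differed more than the cell cycle genes between the same 2 arrays. The marker lists were chosen with earlier results of these data known, and Sox7 has the highest difference of all measured genes. The size of this contrast is therefore no test. The lists were also dimmer than the mitosis and S phase genes, with median DMSO levels from 4.29 (myeloid) to 6.87 (erythroid), against 8.39 and 8.34. The medians of G1 control genes, 6.74, and of Cdk inhibitors, 5.82, lay within the range of the marker lists. Dim genes vary more. Of 11 markers of hemogenic endothelium, all measured, 5 met the size rule upward: Cdh5, Gfi1, Gfi1b, Gata2 and Sox7. Itga2b, which encodes the sorted CD41, was at 6.19 and 6.0 (-0.12). Kit and Tal1 were lower, Kit at 6.71 and 6.0 (-0.66, 20 of 22 probesets lower, past the 1.5-fold rule) and Tal1 at 8.12 and 7.34 (-0.46, 9 of 9 lower). All 15 measured endothelial markers were above 0, with a median of 1.22 and 8 past the rule, and all 14 measured erythroid markers were below 0, with a median of -1.28 and 11 past it. The median level of the endothelial list was 6.29 with DMSO and 7.26 with the inhibitor, and that of the erythroid list was 6.87 and 5.55. No measured endothelial or hemogenic endothelium marker was below the median of the table in either array. The filter on bright probesets nearly fixes this: of 15087 measured genes, 144 were below it with DMSO and 113 with the inhibitor. Megakaryocyte markers had a median of -0.70 (3 of 7 lower past the rule) and myeloid markers of 0.17 (2 of 9 higher). Smooth muscle and mesenchyme markers had a median of -0.37 (2 of 10 lower), cardiac mesoderm markers of 0.33 (2 of 8 higher, 1 lower) and pluripotency markers of 0.31 (2 of 6 higher). These shifts stand beside the differences of Ccnd1, Cdkn1c and Cdkn2c, and their part in those differences was not tested. In RNA from sorted cells in bulk, fewer cells of a type and less RNA per cell cannot be told apart.

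**Figure D5:**
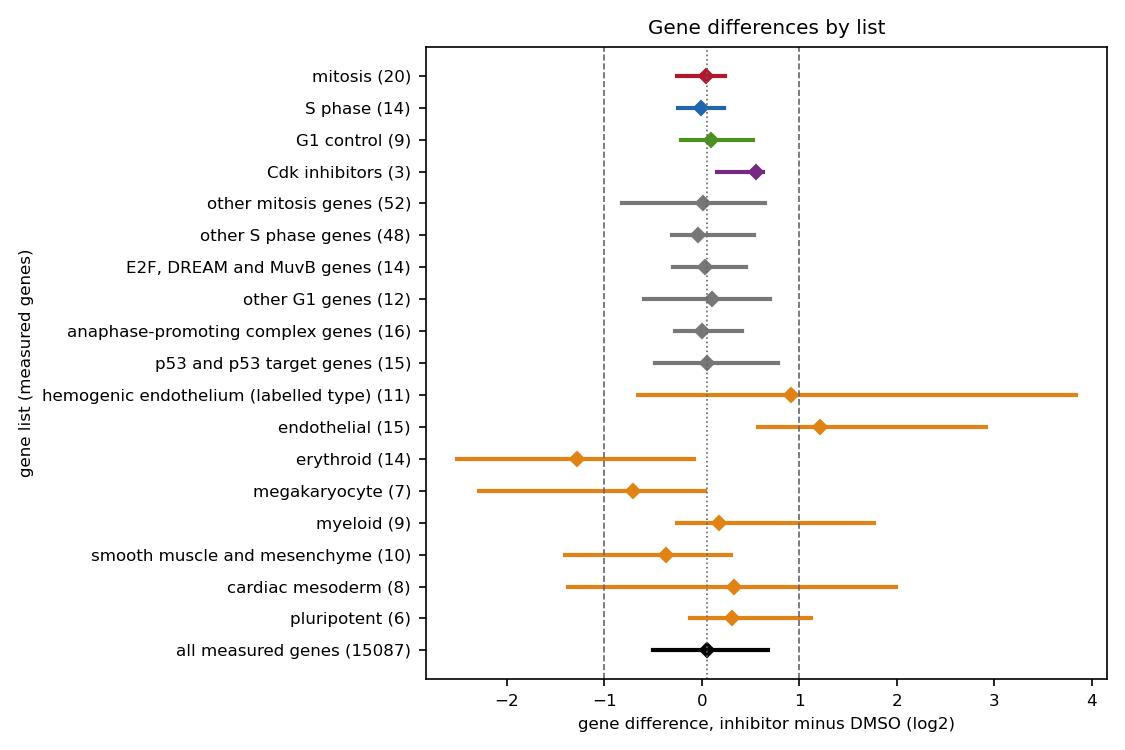
Median (diamond) and range (line) of the gene differences, inhibitor minus DMSO in log2, for the groups of members, the further cell cycle lists (grey) and the cell type markers (orange), with measured genes in brackets. For all measured genes the line spans the 5th to 95th percentile, -0.50 to 0.68. The dashed lines mark 2-fold, which no cell cycle list reaches, while the endothelial and erythroid medians lie at 1.22 and -1.28.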

How the data were processed

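RNA of 1 DMSO and 1 inhibitor sample was measured on Affymetrix arrays, and groups follow the sample titles. The table the authors deposited gives 1 value per probeset and array, read here as log2 intensity because the values run from 0.157 to 13.5. For summarisation and normalization the entry is "not given in the sources used here", as for the genome build, and the values carry no detection call. Ranked by value, the arrays are at most 0.085 apart, and the array medians are 3.18 (DMSO) and 3.16 (inhibitor). The table holds 1048575 probesets, which with its header fills the row limit of a spreadsheet, so probesets past that line were not analysed here. The platform annotation names 270105 of them with 1 symbol. Of 22133 symbols 17905 were current in the RefSeq table of GRCm38.p6, 4167 were updated through synonyms and 61 kept.

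Values were used as deposited. Bright probesets, levels, differences and the size rule are defined with the results. All genes of the table were processed alike, and the members' counts stand beside those of all genes. The code was tested on simulated data, and Python 3.11.15, pandas 2.3.3, numpy 2.4.6 and statsmodels 0.14.6 were used. The members, the lists and the rules were chosen with earlier results of these data known. Named genes are all 50 members, the 3 genes of each further list with the largest absolute difference, and marker genes. The alternatives were 3 other scalings, a level-dependent trend removed, 2 other filters on dim probesets, dim values raised to the median of the table, the mean over probesets, only a gene's brighter probesets, a minimum of 1 or of 8 bright probesets, inclusion of probesets with several symbols, no direction rule and a 3-fold threshold. The 1.2-fold size and the level of 7 were added after the values were seen.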

Additional observations from a re-analysis of the deposited data

How the results depend on the processing

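Over 14 alternatives the count of members past the 2-fold rule stayed at 0 in both directions (1 of them sets the threshold at 3-fold), and over 13 so did the count of members lower past the 1.5-fold rule. The count higher past the 1.5-fold rule went from 0 to 2 with each array centred on its median (Cdkn1c and Cdkn2c), and to 1 in 5 alternatives: Cdkn1c after quantile normalization, with a filter at the 75th percentile, with the brighter probesets alone and without a direction rule, and Ccnd1 with the mean over probesets. The Cdk inhibitor median of 0.56 was 0.26 with values below the median of the table raised to it and 0.30 with at least 1 bright probeset, and with at least 8 no Cdk inhibitor was left to give a value. The other group medians moved by less than the SD of their members' differences. Of the 46 members 28 kept the sign of their difference in every alternative that measured them, and 18 did not: Ccna2, Cenpe, Plk1, Cdc20, Kif20a, Birc5, Aurkb, Tpx2, Mcm3, Mcm4, Mcm7, Pcna, Ccne1, Ccne2, E2f1, Ccnd2, Ccnd3 and Rbl2. Of these 18, Pcna alone moved by more than the SD over its probesets, to -0.09 with its brighter probesets. The causes were not tested. No paired analysis was possible because each condition has 1 array, and for the same reason no array could be left out. The values carry no detection call, so how far background limits the dimmer members, such as Rbl2, Cdk6, Cdkn2c, Rbl1 and E2f1, was not tested.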
